A study of Homo sapiens with 9 samples.

Results

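The transcripts examined here were those of 10 genes of the bone morphogenetic protein (BMP) pathway and its targets in SKMEL-147 cells, a human melanoma cell line. They comprised BMP1 and BMP4, the receptor genes BMPR1A and BMPR2, the signal transducers SMAD1 and SMAD5, the inhibitory SMAD6, and the target genes ID1, ID2 and ID3. These genes were taken by name, with earlier results of these data known, and all 10 of 10 were found among the 57736 genes of the count table and passed the filter on low counts, as did 14614 genes in all. RNA-seq of rRNA-depleted total RNA was performed on 9 libraries in 3 groups of 3 replicates, lettered A, B and C. Cells of every group stably expressed the Cas9 nuclease and received a lentiviral vector carrying a guide RNA and GFP. The guide was a scrambled control (sgScr) or 1 of 2 guides against PHF8 (sgPHF8-1, sgPHF8-3), the gene of a histone demethylase. The study describes transduced populations and no isolation of clones, so that edited and unedited cells may have been sequenced together, and judged the loss of PHF8 by its protein. The comparisons ask which transcripts change when PHF8 is targeted.

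The guide sequences are shown because the guides cut far apart in PHF8 and some of the 10 genes differed between them. Each is written 5′ to 3′ in lower case with the adjacent PAM, the short motif that Cas9 requires, in capitals, as found in the GRCh37 (hg19) genome, where each had 1 match on the X chromosome.
sgPHF8-1: gtcacactcgatcatgaagcGGG
sgPHF8-3: tcctcctgagcctaaacaagAGG
The site of sgPHF8-1 lies at chrX:54069090-54069109 on the plus strand, in exon 2 of 22 of the canonical PHF8 transcript, which is read from the minus strand, and in exons of 14 of the 22 annotated transcripts. The site of sgPHF8-3 lies at chrX:53966772-53966791 on the minus strand, in exon 21 of 22, and in exons of 8 of the 22 transcripts.

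BMPs are secreted ligands of the TGFβ family that bring together type I receptors, such as BMPR1A, and type II receptors, such as BMPR2. The activated type I receptor phosphorylates SMAD1 and SMAD5, which enter the nucleus with SMAD4 and induce target genes, among them the ID genes and the feedback inhibitor SMAD6. ID proteins bind basic helix-loop-helix factors, mainly E-proteins, and keep them from DNA. ID proteins are best known for holding progenitor cells in an undifferentiated state.

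PHF8 itself (ENSG00000172943) was examined first as a check of the labels. Its normalized counts, which are read counts divided by 1 size factor per library, were 655, 606 and 634 in sgScr libraries A, B and C, 564, 571 and 565 with sgPHF8-1, and 400, 387 and 434 with sgPHF8-3. Every library of either guide was below every sgScr library. The fall was 10.3% with sgPHF8-1 (log2 fold change -0.16 ± 0.05 SE, adjusted p = 0.027) and 35.6% with sgPHF8-3 (-0.63 ± 0.06, adjusted p = 6.4e-09), by edgeR's quasi-likelihood test with Benjamini-Hochberg adjustment over the 14614 genes. The call for sgPHF8-1 was lost without sgScr A (adjusted p = 0.12), sgScr C (0.073), sgPHF8-1 A (0.073) or sgPHF8-1 C (0.057). Counts over the whole gene do not show whether the remaining transcripts carried edits.

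Library totals were 17366120 to 19838142 counts. sgPHF8-1 B stood farthest from its group mates, with a root mean square log2 distance of 0.312 against 0.25 to 0.286 in the other libraries, and the counts of called genes among the 10 and among all further pathway genes are repeated without it. The abundant small RNAs RN7SL1, RN7SL2, RN7SK, RPPH1 and RMRP together took 4.86 to 4.96% of counts with sgScr, 4.88 to 5.07% with sgPHF8-1 and 4.2 to 4.57% with sgPHF8-3. Of 6 melanocyte lineage markers 4 were above 0, and MLANA and TYR were at 0 in every library. The lineage factors MITF and SOX10 and the dedifferentiation markers AXL, NGFR, SOX9 and EGFR were expressed and several moved with the groups. SOX10 fell by 12.0% with sgPHF8-1 and 7.7% with sgPHF8-3, NGFR fell by 38.5% and 18.2%, and SOX9 rose by 18.9% with sgPHF8-1 (edgeR adjusted p = 7.9e-05, 0.012, 8.8e-15, 3.1e-07 and 0.013). MITF, AXL, NGFR and EGFR were higher with sgPHF8-3 than with sgPHF8-1 (edgeR adjusted p = 0.031, 0.049, 6.7e-09 and 0.0040). The summed lineage markers were 2955 to 3096 normalized counts with sgScr, 2609 to 2760 with sgPHF8-1 and 2820 to 2883 with sgPHF8-3, and the summed dedifferentiation markers 41537 to 42254, 36614 to 37791 and 40616 to 41691. The part of these shifts in the results below was not tested. Summed leukocyte and endothelial markers reached at most 13.1 and 9.22 normalized counts in any library. Summed epithelial markers were at least 38.1 with sgScr, 13.4 to 28.1 with sgPHF8-1 and 18.0 to 29.7 with sgPHF8-3, and summed fibroblast markers were 374 to 422, 389 to 427 and 318 to 363, where DCN was at 0. The epithelial sum was mostly KRT14, which fell by 53.4% with sgPHF8-1 and fell by 46.4% with sgPHF8-3 (edgeR adjusted p = 0.0013 and 0.0092). Of the fibroblast markers PDGFRB fell by 72.4% with sgPHF8-1, from a mean of 16.6 to 4.53 normalized counts, and LUM fell by 15.6% with sgPHF8-3 (edgeR adjusted p = 0.00081 and 0.022). In bulk RNA, fewer cells that express a gene and less RNA per cell cannot be told apart.

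Compared per length, as normalized counts per kb of exon, the ID genes spanned a wide range in control cells. ID1 had the highest level of the 10 genes in sgScr cells, 2380 ± 50.8 per kb (SD, n = 3), followed by ID3 at 651 ± 3.87 and SMAD5 at 257 ± 2.05. BMP1 at 148 ± 7.63 and ID2 at 142 ± 7.96 did not differ beyond their spread, nor did BMPR2 at 102 ± 4.1 and BMPR1A at 98.4 ± 3.57. SMAD1 followed at 33.7 ± 2.56, and SMAD6 at 4.75 ± 0.114 and BMP4 at 3.64 ± 0.29 were lowest. In this order of levels BMP4, the ligand among the 10 genes, was the scarcest transcript. Target genes stood at both ends, with ID1 the most abundant and SMAD6 next to BMP4. BMP2, a ligand gene outside the 10, had a mean of 291 normalized counts in sgScr cells, against 11.3 for BMP4. With sgPHF8-1, BMP1 at 118 ± 4.25 per kb stood below ID2 at 145 ± 4.27, and BMPR2 at 83.1 ± 2.5 below BMPR1A at 91.2 ± 1.91. With sgPHF8-3 the same pairs were 114 ± 1.98 and 135 ± 8.08, and 85.1 ± 6.87 and 97.2 ± 2.52.

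**Figure D1:**
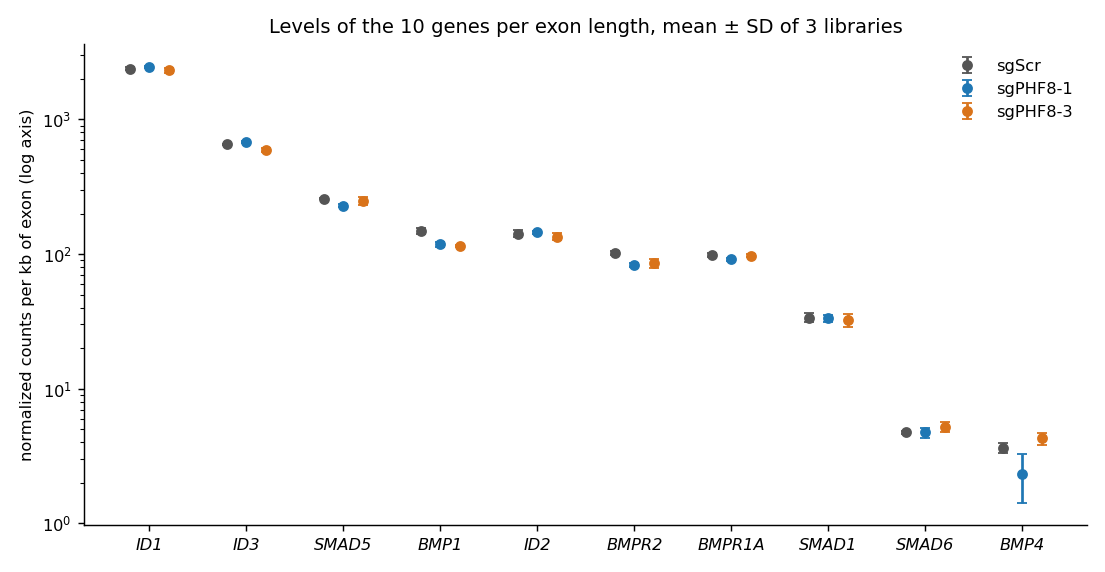
Normalized counts per kb of exon (log axis) of the 10 genes in sgScr, sgPHF8-1 and sgPHF8-3 cells, ordered by their level in sgScr. Points are means and bars SDs of 3 libraries; ID1 lies above 2000 per kb in every group, and SMAD6 and BMP4 lie below 6.

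Against sgScr, 3 of the 10 genes fell and 0 rose with each guide. With sgPHF8-1 these were BMP1, BMPR2 and SMAD5, where 15.7% of all genes tested fell and 15.2% rose (2292 and 2221 genes, but 2547 and 1832 when scaled by library totals only). With sgPHF8-3 they were BMP1, BMPR2 and ID3, where 9.78% of all genes fell and 9.48% rose. The median log2 fold change of the 10 genes was -0.06 with sgPHF8-1 and -0.05 with sgPHF8-3, against 0.00 for all genes. The comparisons share the 3 sgScr libraries. In the direct comparison of sgPHF8-3 with sgPHF8-1, 1 gene was higher (SMAD5) and 1 lower (ID3), against 5.83% and 4.74% of all genes, or 10.6% in either direction. Without library sgPHF8-1 B the counts against sgScr were again 3 lower and 0 higher for each guide, and between the guides 0 were higher and 1 lower. Of the 14905 genes tested in that setting, 2094 fell and 1990 rose with sgPHF8-1, and 1697 fell and 1733 rose with sgPHF8-3. Between the guides 817 of them were higher and 650 lower. The study calls the replicates biological but does not say whether they came from separate transductions, and p-values measure the spread between these samples.

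**Figure D2:**
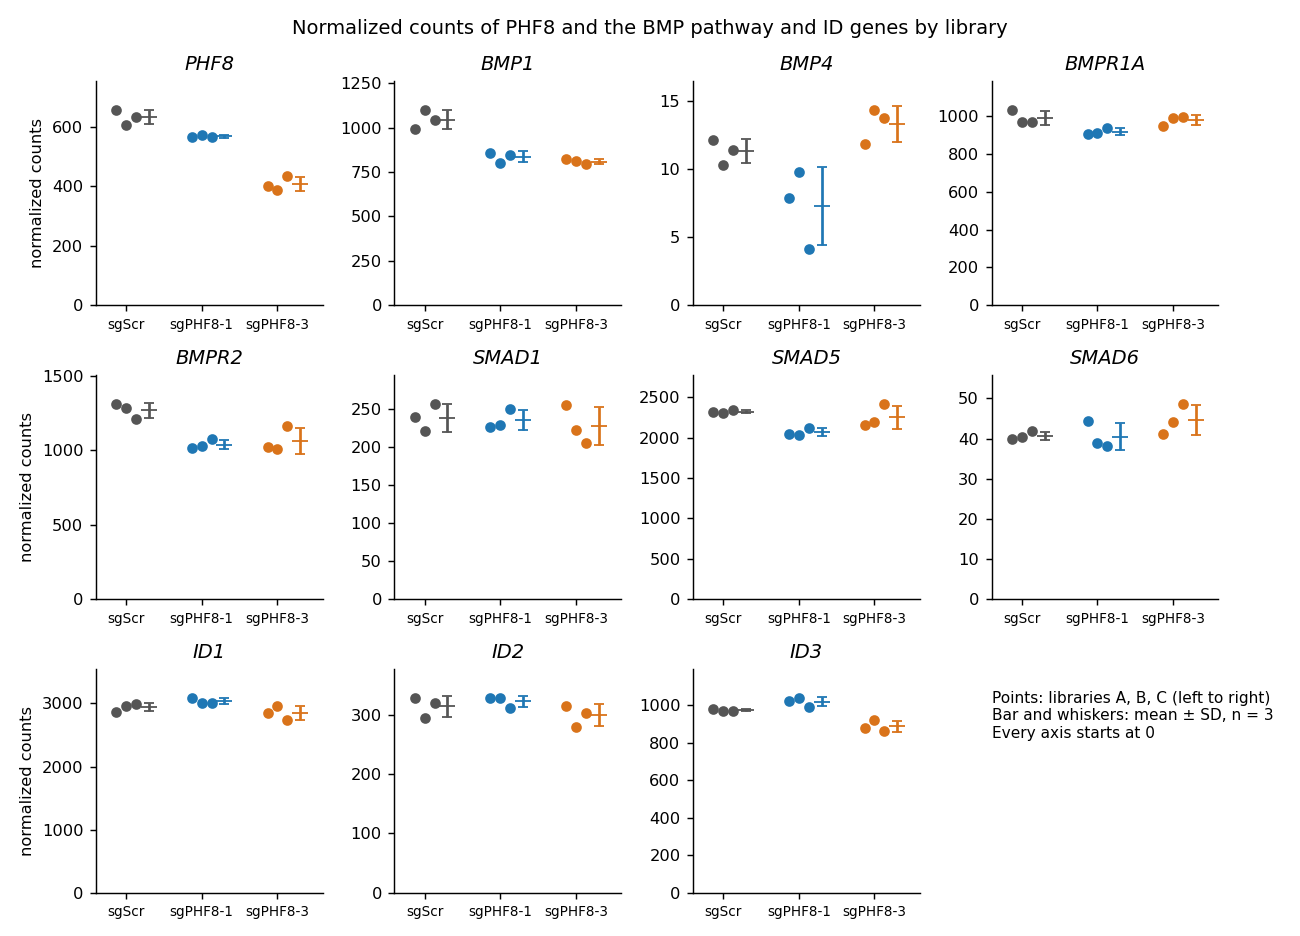
Normalized counts of PHF8 and the 10 genes in each library (points, A to C from left to right) with the mean and SD of 3 libraries per group, each axis starting at 0. BMP1 and BMPR2 lie below every sgScr library with either guide, SMAD5 does so in the 3 sgPHF8-1 libraries, and ID3 in the 3 sgPHF8-3 libraries.

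Of the ligand and protease genes, BMP1 fell and BMP4 was close to the limit of detection. BMP1 (ENSG00000168487, GRCh37 chromosome 8, 22022653 to 22069839) carries a BMP name but encodes a tolloid metalloprotease that processes procollagens and cleaves the BMP antagonist chordin. Its normalized counts were 990, 1097 and 1042 in sgScr cells, 857, 801 and 847 with sgPHF8-1, and 820, 812 and 793 with sgPHF8-3. No library of either guide reached the lowest sgScr library. BMP1 fell by 19.9% with sgPHF8-1 (log2 -0.32 ± 0.05 SE, edgeR adjusted p = 5.7e-06) and by 22.5% with sgPHF8-3 (-0.37 ± 0.05, edgeR adjusted p = 1.8e-06). The difference between the guides was -0.05 on the log2 scale, with a 95% interval of -0.15 to 0.05 (edgeR adjusted p = 0.62). An unnamed gene on the same strand (ENSG00000177725) shares 461 bp of the 7067 bp of BMP1 exons, and the study's counting of such reads is not given in the sources used here.

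BMP4 (ENSG00000125378, GRCh37 chromosome 14, 54416454 to 54425479), a ligand of the pathway, had 11 to 13 counts per library in sgScr cells, 4 to 9 with sgPHF8-1 and 12 to 14 with sgPHF8-3. Every sgPHF8-1 library was thus below every sgScr and sgPHF8-3 library. The normalized means were 11.3 ± 0.898, 7.26 ± 2.86 and 13.3 ± 1.35 (SD, n = 3). The log2 fold change was -0.63 with sgPHF8-1 (95% interval -1.39 to 0.13, edgeR adjusted p = 0.21) and 0.23 with sgPHF8-3 (-0.43 to 0.89, edgeR adjusted p = 0.67). Leaving out 1 library moved the value for sgPHF8-1 between -0.36, without sgPHF8-1 C with its 4 counts, and -0.88, without sgPHF8-1 B. Between the guides it was 0.86 (0.12 to 1.61, edgeR adjusted p = 0.14). At this depth the intervals were wide, and a change of any size within them remains possible. An unnamed gene on the opposite strand (ENSG00000287156) shares 506 bp of the 3096 bp of BMP4 exons.

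Of the receptor genes, BMPR2 fell with each guide, and BMPR1A was near the threshold with sgPHF8-1. BMPR2 (ENSG00000204217, GRCh37 chromosome 2, 203241050 to 203432474) encodes the type II BMP receptor. Its normalized counts were 1311, 1286 and 1212 in sgScr cells, 1017, 1026 and 1075 with sgPHF8-1, and 1019, 1010 and 1163 with sgPHF8-3. The highest value with a guide, sgPHF8-3 C, was below the lowest sgScr library. BMPR2 fell by 18.2% with sgPHF8-1 (log2 -0.29 ± 0.05 SE, edgeR adjusted p = 3.7e-05) and by 16.3% with sgPHF8-3 (-0.26 ± 0.05, edgeR adjusted p = 0.00033). The guides differed by 0.03 on the log2 scale (95% interval -0.07 to 0.13, edgeR adjusted p = 0.75). An unnamed gene on the same strand (ENSG00000289490) shares 57 bp of the 12502 bp of BMPR2 exons.

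BMPR1A (ENSG00000107779, GRCh37 chromosome 10, 88516353 to 88692582), a type I BMP receptor gene, had normalized counts of 1032, 968 and 972 in sgScr cells, 904, 911 and 940 with sgPHF8-1, and 950, 992 and 995 with sgPHF8-3. All sgPHF8-1 libraries were below all the others, whereas sgPHF8-3 and sgScr libraries overlapped. The log2 fold change with sgPHF8-1 was -0.11 ± 0.04 SE (95% interval -0.20 to -0.02) and missed the threshold (edgeR adjusted p = 0.053). It passed in 4 of 17 alternatives, without sgPHF8-1 C (0.047), without sgPHF8-3 A (0.048), by library totals only (0.028) and with a stricter filter on low counts (0.041). With sgPHF8-3 it was -0.02 (95% interval -0.11 to 0.07, edgeR adjusted p = 0.81).

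Among the SMAD genes SMAD5 fell with sgPHF8-1, whereas SMAD1 and SMAD6 passed the test in no comparison. SMAD5 (ENSG00000113658, GRCh37 chromosome 5, 135468534 to 135524435) encodes a transducer that BMP type I receptors phosphorylate. Its normalized counts were 2319, 2304 and 2341 in sgScr cells, 2040, 2038 and 2125 with sgPHF8-1, and 2152, 2192 and 2417 with sgPHF8-3. The sgPHF8-1 libraries lay below all the others, and sgPHF8-3 C was the highest of the 9 libraries. SMAD5 fell by 10.9% with sgPHF8-1 (log2 -0.17 ± 0.04 SE, edgeR adjusted p = 0.0014). With sgPHF8-3 the log2 fold change was -0.04 (95% interval -0.12 to 0.03, edgeR adjusted p = 0.46). The guides differed by 0.12 ± 0.04 (edgeR adjusted p = 0.040). The log2 difference was 0.07 without sgPHF8-3 C and 0.11 to 0.16 without each of the others in turn, but its call depended on single libraries: adjusted p was 0.12 and 0.074 without sgPHF8-1 A or B, 0.055 and 0.29 without sgPHF8-3 B or C, and 0.051 to 0.056 without a sgScr library. The antisense gene SMAD5-AS1 shares 610 bp of the 9039 bp of SMAD5 exons on the opposite strand, and the strand setting of the counting is not given in the sources used here.

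SMAD1 (ENSG00000170365, GRCh37 chromosome 4, 146402346 to 146480328), the companion transducer, had group means of 239 ± 18.2 normalized counts with sgScr, 236 ± 13 with sgPHF8-1 and 228 ± 25.2 with sgPHF8-3 (SD, n = 3). The libraries of the 3 groups overlapped between 206 and 257. The antisense gene SMAD1-AS1 shares 376 bp of the 7094 bp of SMAD1 exons. The 95% interval of its log2 fold change was -0.20 to 0.16 with sgPHF8-1 (edgeR adjusted p = 0.90) and -0.24 to 0.12 with sgPHF8-3 (edgeR adjusted p = 0.67). SMAD6 (ENSG00000137834, GRCh37 chromosome 15, 66994574 to 67075187), the inhibitory member and itself a BMP target, was covered by 36 to 46 counts per library. Its means were 40.7 ± 0.973, 40.5 ± 3.41 and 44.6 ± 3.77 normalized counts in sgScr, sgPHF8-1 and sgPHF8-3 cells. The intervals for SMAD6 were wider, at -0.36 to 0.36 with sgPHF8-1 (edgeR adjusted p = 1) and -0.22 to 0.49 with sgPHF8-3 (edgeR adjusted p = 0.66). For both genes a difference of any size within these intervals remains possible.

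**Figure D3:**
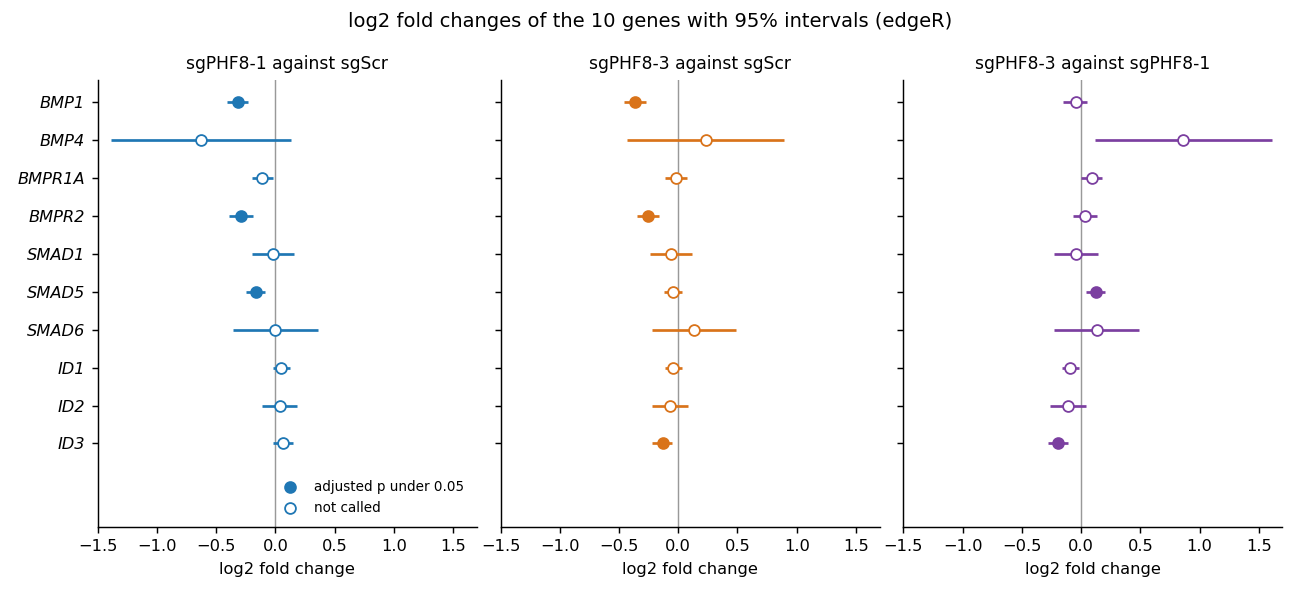
log2 fold changes (points) of the 10 genes with 95% intervals (lines) in each comparison of the groups; filled points have an edgeR adjusted p under 0.05. BMP1 and BMPR2 are filled at similar negative values for each guide, and ID3 and SMAD5 are filled between the guides on opposite sides of 0.

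The ID genes showed small differences, and ID3 alone among them passed the test. ID1 (ENSG00000125968, GRCh37 chromosome 20, 30193086 to 30194318), a widely used readout of BMP signaling, had normalized counts of 2869, 2951 and 2993 in sgScr cells, 3087, 3004 and 3012 with sgPHF8-1, and 2854, 2961 and 2735 with sgPHF8-3. The sgPHF8-1 libraries lay just above the others, and the sgPHF8-3 and sgScr libraries overlapped. ID1 differed from sgScr by 3.3% with sgPHF8-1 (95% interval -1.5 to 8.4%, edgeR adjusted p = 0.32) and by -3.0% with sgPHF8-3 (-7.6 to 1.8%, edgeR adjusted p = 0.40). Between the guides the log2 difference was -0.09 ± 0.03 SE, with an edgeR adjusted p of 0.090.

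ID2 (ENSG00000115738, GRCh37 chromosome 2, 8818975 to 8824591) had normalized counts of 328, 294 and 319 in sgScr cells, 328, 327 and 311 with sgPHF8-1, and 314, 279 and 303 with sgPHF8-3. The 3 groups overlapped. The difference from sgScr was 2.6% with sgPHF8-1 (95% interval -7.2 to 13.4%, edgeR adjusted p = 0.74) and -4.8% with sgPHF8-3 (-14.0 to 5.4%, edgeR adjusted p = 0.54). For ID1 and ID2, changes of mRNA of any size within these intervals remain possible. The antisense gene ID2-AS1 shares 145 bp of the 2213 bp of ID2 exons.

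ID3 (ENSG00000117318, GRCh37 chromosome 1, 23884417 to 23885992) had normalized counts of 980, 969 and 972 in sgScr cells, 1024, 1040 and 993 with sgPHF8-1, and 881, 922 and 865 with sgPHF8-3. The groups did not overlap, with sgPHF8-1 highest and sgPHF8-3 lowest. ID3 fell by 8.7% with sgPHF8-3 (log2 -0.13 ± 0.04 SE, edgeR adjusted p = 0.028). With sgPHF8-1 the log2 fold change was 0.06 (95% interval -0.02 to 0.15, edgeR adjusted p = 0.25). Between the guides ID3 was 12.7% lower with sgPHF8-3 than with sgPHF8-1 (log2 -0.20 ± 0.04, edgeR adjusted p = 0.0030). The call against sgScr was lost without any 1 of the sgScr libraries (adjusted p = 0.068 to 0.078) and without sgPHF8-3 A (0.085) or C (0.099), while the difference between the guides was called in all 16 alternatives at the same threshold, with adjusted p from 0.0027 to 0.019. The share of the 5 small RNAs and the summed fibroblast markers given above were also lowest with sgPHF8-3, and their part in the result was not tested.

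Over the 9 libraries, the genes whose log2 CPM were most correlated with ID3 were CSTB (Pearson r = 0.967), RN7SL2 (0.962) and MARCKSL1 (0.960). CPM are counts scaled to the library total multiplied by its TMM factor. RN7SL2, the RNA of the signal recognition particle, had means of 219432 ± 6270, 239366 ± 8220 and 191990 ± 11500 normalized counts in sgScr, sgPHF8-1 and sgPHF8-3 cells. For ID1 the closest genes were FBXO44 (0.940), SNHG28 (0.932) and RN7SL493P (0.914), and for ID2 they were MRNIP-DT (0.948), GNL1 (0.941) and VPS4A (0.941). These were the highest of all genes tested, share libraries and depth, and describe a likeness over 9 points.

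The promoters of ID1, ID3, BMPR2 and SMAD5 are shown because the first is the best known target gene and the others changed with a guide. RefSeq promoter windows of 300 bases (250 before to 50 after the start of the gene, build GRCh38.p14) were at hand for 9 of the 10 genes, all but BMP1. They were searched on both strands for GGCGCC, a GC-rich element bound by SMAD1 and SMAD5, and for GTCTAGAC and CAGAC, the full and short SMAD binding elements. None of these motifs lies within another, and matches are in capitals.
ID1, chr20:31605039-31605338, plus strand: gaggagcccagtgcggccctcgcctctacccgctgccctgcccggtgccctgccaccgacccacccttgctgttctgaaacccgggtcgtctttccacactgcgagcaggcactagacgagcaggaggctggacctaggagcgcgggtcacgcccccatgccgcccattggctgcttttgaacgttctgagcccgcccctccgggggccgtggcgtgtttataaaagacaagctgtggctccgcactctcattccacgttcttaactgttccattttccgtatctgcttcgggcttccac
ID3, chr1:23559452-23559751, minus strand: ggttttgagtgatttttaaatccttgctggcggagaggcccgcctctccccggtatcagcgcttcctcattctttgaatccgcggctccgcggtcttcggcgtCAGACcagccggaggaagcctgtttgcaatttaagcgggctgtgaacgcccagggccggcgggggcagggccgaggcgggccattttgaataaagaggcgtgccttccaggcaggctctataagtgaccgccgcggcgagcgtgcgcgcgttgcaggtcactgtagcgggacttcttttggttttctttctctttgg
BMPR2, chr2:202376077-202376376, plus strand: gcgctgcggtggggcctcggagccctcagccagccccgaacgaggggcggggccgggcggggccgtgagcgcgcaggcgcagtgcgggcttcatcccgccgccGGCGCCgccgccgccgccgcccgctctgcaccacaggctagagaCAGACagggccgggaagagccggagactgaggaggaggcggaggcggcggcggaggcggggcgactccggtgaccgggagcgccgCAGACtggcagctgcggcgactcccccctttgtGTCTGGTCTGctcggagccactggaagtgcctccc
SMAD5, chr5:136132595-136132894, plus strand: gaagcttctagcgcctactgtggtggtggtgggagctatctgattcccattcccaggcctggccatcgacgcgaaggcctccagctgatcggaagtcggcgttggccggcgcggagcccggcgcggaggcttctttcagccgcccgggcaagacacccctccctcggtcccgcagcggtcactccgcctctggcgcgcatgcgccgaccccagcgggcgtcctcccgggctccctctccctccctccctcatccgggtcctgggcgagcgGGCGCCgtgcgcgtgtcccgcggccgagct
The ID1 window held none of the motifs, and that of ID3 held 1 CAGAC. The BMPR2 window held 1 GGCGCC and 4 CAGAC, and the SMAD5 window 1 GGCGCC. Of the genes whose windows are not shown, SMAD6 had 1 GTCTAGAC, and BMP4 and SMAD1 had GGCGCC and CAGAC in some of their windows. The windows of ID2 and BMPR1A held none of the motifs. Sequence outside the windows was not searched. Of all 35116 promoter windows 19.2% held GGCGCC, 45.3% CAGAC and 0.202% GTCTAGAC, so that GGCGCC and CAGAC are common in such windows, and a match describes its letters alone. GC content was 62.7% for ID1, 59.7% for ID3, 76.7% for BMPR2 and 72.0% for SMAD5, with a median of 58.7% over all windows.

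The rest of the pathway was followed with 66 further genes in 7 lists, of which 39 passed the filter. With sgPHF8-1, 7 of the 39 rose and 6 fell (median log2 fold change -0.02), and with sgPHF8-3, 3 rose and 2 fell (median 0.01). Of all genes tested 15.2% rose and 15.7% fell with sgPHF8-1, and 9.48% and 9.78% with sgPHF8-3, and the counts over the 39 genes together were close to or below these shares. Without library sgPHF8-1 B, 8 rose and 5 fell with sgPHF8-1, and 4 rose and 2 fell with sgPHF8-3. Of the 14905 genes tested in that setting, 1990 rose and 2094 fell with sgPHF8-1, and 1733 rose and 1697 fell with sgPHF8-3. Between the guides 1 of the 39 was higher and 2 lower with sgPHF8-3 than with sgPHF8-1, where 5.83% and 4.74% of all genes were. Without sgPHF8-1 B, 2 of the 39 were higher and 3 lower, against 817 and 650 of the 14905 genes tested. Among 3 of 13 further ligand genes that passed, BMP2, a ligand of the same subfamily as BMP4, had normalized counts of 316, 278 and 279 in sgScr cells, 396, 393 and 371 with sgPHF8-1, and 319, 292 and 354 with sgPHF8-3. The sgPHF8-1 libraries were above all the others. BMP2 rose with sgPHF8-1 (log2 0.41 ± 0.07 SE, edgeR adjusted p = 0.00012), was at 0.14 with sgPHF8-3 (edgeR adjusted p = 0.20), and differed between the guides (-0.27 ± 0.07, edgeR adjusted p = 0.020), a difference not called without sgPHF8-1 A (0.079) or sgPHF8-3 B (0.14). BMP8B, another ligand gene, fell with sgPHF8-1 from 28.4 ± 8.18 to 16.5 ± 5.39 (log2 -0.78 ± 0.28, edgeR adjusted p = 0.033), a call lost without sgScr A (0.12), sgScr B (0.15), sgPHF8-1 A (0.15) or sgPHF8-1 B (0.094).

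Of the 7 receptor and co-receptor genes that passed, 1 fell with sgPHF8-1 and 0 were called with sgPHF8-3. Among all genes 15.7% fell and 15.2% rose with sgPHF8-1, against 9.78% and 9.48% with sgPHF8-3. ACVR2B, a type II receptor shared by activins and BMPs, had 751 ± 34.8 normalized counts in sgScr cells, 632 ± 3.51 with sgPHF8-1 and 695 ± 25.3 with sgPHF8-3, which gave log2 fold changes of -0.25 ± 0.05 (edgeR adjusted p = 0.00036) and -0.11 ± 0.05 (edgeR adjusted p = 0.11). Of 8 SMAD genes and regulators, SMAD4, the common partner of SMAD1 and SMAD5, fell with sgPHF8-1 (log2 -0.17 ± 0.04, edgeR adjusted p = 0.0036) and had -0.09 ± 0.04 with sgPHF8-3 (edgeR adjusted p = 0.15). The corepressor gene SKIL was lower (-0.10 ± 0.04, edgeR adjusted p = 0.042) and the ubiquitin ligase gene SMURF2 higher (0.09 ± 0.03, edgeR adjusted p = 0.028) with sgPHF8-1. The SKIL call was lost without 6 of the 9 libraries and the SMURF2 call without 4 of them, with adjusted p of 0.057 to 0.14 for SKIL and 0.057 to 0.12 for SMURF2. The SMURF2 call was also lost by library totals only (0.074) and with no filter on low counts (0.11). With sgPHF8-3 none of these 8 genes was called. SMURF2 (edgeR adjusted p = 0.066 with sgPHF8-3) was called without sgPHF8-1 B (0.033) and with only the groups compared (0.034).

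Of 8 antagonist genes that passed, 4 rose and 1 fell with sgPHF8-1, and 2 rose and 1 fell with sgPHF8-3. Among all genes 15.2% and 9.48% rose, and 15.7% and 9.78% fell. The medians of the list were 0.19 and 0.06 on the log2 scale, and the list was not tested as a group. FST encodes follistatin, which binds activins and some BMPs. Its normalized counts were 218, 211 and 258 in sgScr cells, 321, 318 and 312 with sgPHF8-1, and 347, 335 and 367 with sgPHF8-3, with no overlap between the groups. FST rose by 38.5% with sgPHF8-1 (log2 0.47 ± 0.08 SE, edgeR adjusted p = 4.5e-05) and by 52.6% with sgPHF8-3 (0.61 ± 0.08, edgeR adjusted p = 1.9e-06). CRIM1, a transmembrane protein that binds BMPs, rose from 7713 ± 133 normalized counts to 9112 ± 130 and 9129 ± 36.6 (log2 0.24 ± 0.03 with each guide, edgeR adjusted p = 2.2e-07 and 4.4e-07). FSTL3, a follistatin relative, rose with sgPHF8-1 (0.39 ± 0.11, edgeR adjusted p = 0.010) and was at 0.16 with sgPHF8-3 (95% interval -0.08 to 0.40, edgeR adjusted p = 0.38), and at 0.01 without sgPHF8-3 A and 0.30 without sgPHF8-3 C.

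The other antagonist calls, named after their values were seen, were TWSG1 and FSTL1. TWSG1, a modulator of BMP and chordin binding, fell with sgPHF8-1 (log2 -0.24 ± 0.05 SE, edgeR adjusted p = 0.00021) and sgPHF8-3 (-0.14 ± 0.05, edgeR adjusted p = 0.025); the latter call was lost without sgScr B (0.15), sgScr C (0.078) or sgPHF8-3 B (0.13). FSTL1 rose with sgPHF8-1 (0.14 ± 0.03, edgeR adjusted p = 0.0025), was at -0.04 with sgPHF8-3 (edgeR adjusted p = 0.51), and differed between the guides by -0.18 ± 0.03 (edgeR adjusted p = 0.0012). The classical antagonist NOG had 4.9 to 9.74 normalized counts and CHRD, the substrate of BMP1, at most 2.79, and neither passed the filter.

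Of 8 other BMP target genes, 1 rose and 1 fell with sgPHF8-1 and 1 fell with sgPHF8-3. Among all genes 15.2% rose and 15.7% fell with sgPHF8-1, and 9.78% fell with sgPHF8-3. RUNX2, a transcription factor of bone formation that BMPs induce there, had normalized counts of 306, 291 and 292 in sgScr cells, 186, 200 and 182 with sgPHF8-1, and 222, 213 and 256 with sgPHF8-3. The 3 groups did not overlap. RUNX2 fell by 36.2% with sgPHF8-1 (log2 -0.65 ± 0.08 SE, edgeR adjusted p = 7.6e-07) and by 22.4% with sgPHF8-3 (-0.36 ± 0.08, edgeR adjusted p = 0.0015), and the guides differed by 0.28 ± 0.09 (edgeR adjusted p = 0.035), which was not called without sgPHF8-1 A (0.10), sgPHF8-1 C (0.099) or sgPHF8-3 C (0.22). MSX1, a homeobox target, rose with sgPHF8-1 (0.39 ± 0.12, edgeR adjusted p = 0.015), a call lost without sgScr C (0.064) or sgPHF8-1 C (0.053), and was at 0.06 with sgPHF8-3 (edgeR adjusted p = 0.81). ID4, the remaining ID gene, was at 23.1, 21.3 and 21.1 mean normalized counts and was not called. None of the 3 E-protein genes TCF3, TCF4 and TCF12, whose products ID proteins bind, was called in any comparison. Of 2 procollagen enhancer genes PCOLCE2, whose product aids BMP1, rose with sgPHF8-3 (0.39 ± 0.13, edgeR adjusted p = 0.039), a call lost without any 1 of 6 libraries (adjusted p = 0.059 to 0.12), and had 0.33 ± 0.13 with sgPHF8-1 (edgeR adjusted p = 0.065).

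**Figure D4:**
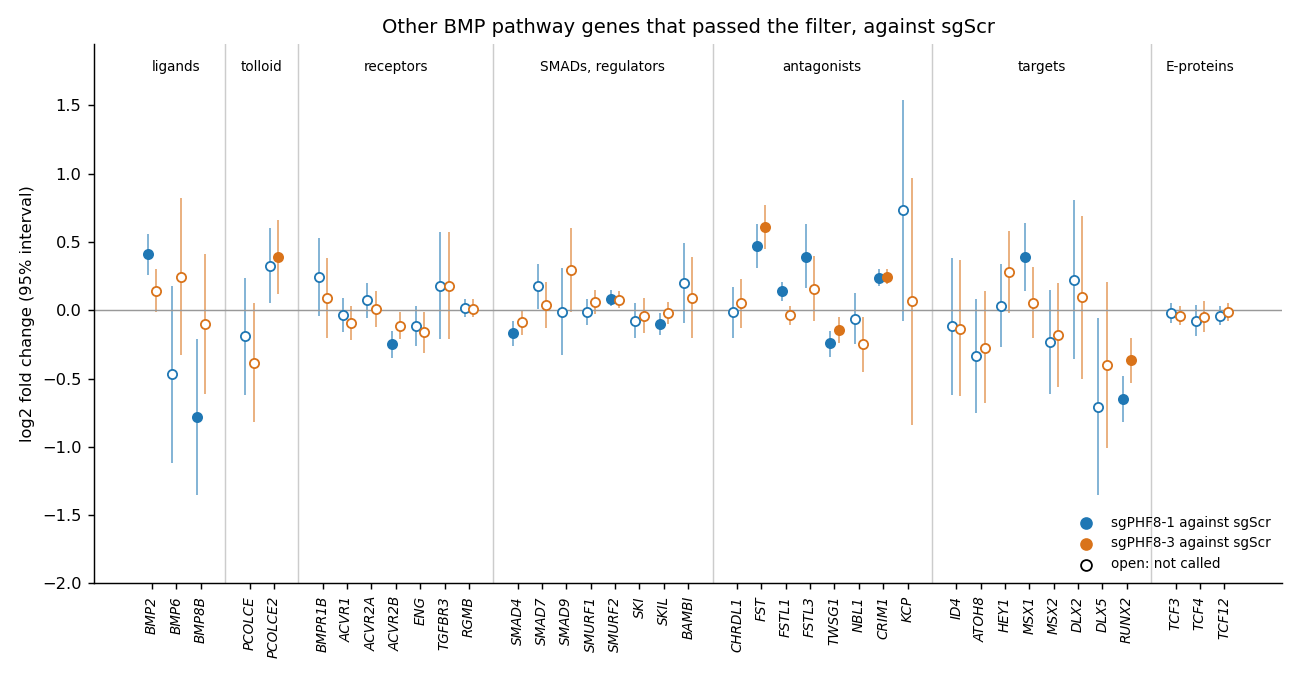
log2 fold changes against sgScr of the 39 further pathway genes that passed the filter, by list, with 95% intervals (lines); filled points have an edgeR adjusted p under 0.05. Filled points of both guides lie on the same side of 0 for FST, CRIM1, TWSG1 and RUNX2, and BMP2 is filled for sgPHF8-1 alone.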

How the data were processed

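Raw counts per gene were deposited by the authors, who removed rRNA from total RNA, aligned paired reads to hg19 with STAR and counted them with HTSeq; the annotation version and strand setting are not given in the sources used here. The authors also deposited normalized counts, a signal equal to each count divided by 1 DESeq2 size factor per library: multiplied back, 100% of values were whole within 0.02. Levels printed are these normalized counts. Tests used the raw counts with edgeR 4.0.16 (limma 3.58.1, R 4.3.3): TMM scaling, filterByExpr, 1 quasi-likelihood model over all 9 libraries without covariates, Benjamini-Hochberg adjustment over 14614 genes, and calls at an adjusted p under 0.05. DESeq2 1.42.0 was an alternative. The model was tested on simulated data. Symbols matched 55501 of 57736 gene IDs (96.1%). Exon lengths and positions came from a GENCODE annotation of GRCh37. Intervals and SEs came from the model. The 10 genes, the pathway and marker lists and the naming rule were chosen with earlier results of these data known. Named were all 10 genes, PHF8, up to 3 called genes per pathway list with the largest change against sgScr, and the 3 genes most correlated with each ID gene. Alternatives changed the scaling, filter, tool, threshold, samples and grouping, added a replicate block, or left out 1 library.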

Additional observations from a re-analysis of the deposited data

Results flagged for a closer look

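For 2 of the 10 genes and 3 of the 39 further pathway genes the effects of the guides differed by a direct edgeR test between sgPHF8-3 and sgPHF8-1, where 10.6% of all genes were called. Without library sgPHF8-1 B, 1 of the 10 genes (ID3) and 5 of the 39 (BMP2, SMAD7, FSTL1, TWSG1 and RUNX2) were called. In that setting 1467 of the 14905 genes tested were called. The differences are given as log2 differences, sgPHF8-3 minus sgPHF8-1. ID3 differed by -0.20 (lower in 3 of 3 sgPHF8-3 libraries, edgeR adjusted p = 0.0030). SMAD5 differed by 0.12 (edgeR adjusted p = 0.040), with all sgPHF8-3 libraries above all sgPHF8-1 libraries. BMP2 differed by -0.27 (edgeR adjusted p = 0.020) and RUNX2 by 0.28 (edgeR adjusted p = 0.035), again without overlap between the guides. FSTL1 differed by -0.18 (edgeR adjusted p = 0.0012). With the exception of the differences in ID3 and FSTL1, these were not called by DESeq2.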

How the results depend on the processing

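Of the 10 genes, BMP1 and BMPR2 were called lower with each guide in all 17 alternatives at the threshold of 0.05, SMAD5 with sgPHF8-1 in 16 of 17, ID3 with sgPHF8-3 in 9 of 17, BMPR1A with sgPHF8-1 in 4 of 17, ID1, ID2 and SMAD1 in 0 of 17, SMAD6 in 0 of the 16 and BMP4 in 0 of the 15 that gave an adjusted p. DESeq2 called 1680 genes for sgPHF8-3 against sgScr and 903 between the guides, where edgeR called 2814 and 1544. DESeq2 was given 31530 genes, without the filter on low counts, so that tool and filter changed together, and on those genes edgeR called 2538 and 1426. By DESeq2, ID3 against sgScr (adjusted p = 0.13), SMAD5 between the guides (0.075) and PHF8 with sgPHF8-1 (0.12) were not called. DESeq2 also did not call BMP8B (0.12), SKIL (0.075) and MSX1 (0.093) with sgPHF8-1, PCOLCE2 (0.18) and TWSG1 (0.089) with sgPHF8-3, or BMP2 (0.071) and RUNX2 (0.12) between the guides. An adjusted p of at most 0.15 gave 4526 and 2910, and added BMPR1A with sgPHF8-1 and ID1 and BMP4 between the guides. Leaving out 1 library gave 923 (without sgPHF8-3 B) to 1467 genes between the guides, 983 without sgPHF8-3 C, 1877 to 3430 for sgPHF8-3 against sgScr and 3544 to 4642 for sgPHF8-1 against sgScr. The upper ends, 3430 without sgPHF8-1 B and 4642 without sgPHF8-3 C, left out a library of the group not compared. Scaling by library totals only gave 1032 higher and 535 lower genes between the guides, against 852 and 692, and 1832 higher and 2547 lower for sgPHF8-1 against sgScr, against 2221 and 2292, without moving the median of all genes by over 0.018 (log2).

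With both guides as 1 group, which averages them, log2 fold changes against sgScr were 0.002 for ID1, -0.016 for ID2, -0.03 for ID3, -0.132 for BMP4, 0.067 for SMAD6 and 0.054 for FSTL1, opposite in sign to 1 of the guides; ID3 (adjusted p = 0.74) and SMAD5 (0.11) were not called. By library totals SMURF2 between the guides was 0.0071. Some uncalled values changed sign when 1 library was left out: ID2 -0.0069 to 0.068, SMAD1 -0.072 to 0.037 and SMAD6 -0.076 to 0.039 with sgPHF8-1; BMPR1A -0.035 to 0.01, SMAD1 -0.156 to 0.0032, BMP8B -0.318 to 0.039 and SKIL -0.074 to 0.023 with sgPHF8-3; and, between the guides, BMPR2 -0.035 to 0.069, SMAD1 -0.134 to 0.021, PCOLCE2 -0.022 to 0.108, SMURF2 -0.024 to 0.0051 and CRIM1 -0.0063 to 0.0097. The cause was not tested.

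A replicate block over the letters gave 4395, 2698 and 1481 genes in the 3 comparisons and changed no call of the 10 genes. Libraries of the same letter did not deviate together (correlations of -0.082 to 0.052 over 9 pairs), so the letters were not taken as pairs. Depth limits BMP4, with 4 to 14 counts per library, and SMAD6, with 36 to 46.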
